A study of Drosophila melanogaster with 6 samples.

Results

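Rab GTPases, Vps sorting proteins and the clathrin coat move membrane and cargo between the cell surface, endosomes, lysosomes and the Golgi. The genes described here were those with a symbol beginning Rab and a digit or X, or Vps and a digit, together with shi, lqf, Chc, Clc, AP-2alpha, AP-2mu and AP-2sigma. They were taken from probe sets that the platform annotation pairs with a single symbol, and the probe set with the highest mean over the 6 arrays stood for each gene. The rule found 59 genes among 11982 with a symbol. The rule used no difference between the diets. It found no probe set under the symbols Rab1, Rab4, Rab5, Rab6, Rab7, Rab8, Rab11 and Vps34, which are not analysed here under those names.

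The tissue was the heart/nephrocyte complex of adult female Drosophila melanogaster, dissected after 21 days on a supplemented medium. One group of 3 arrays came from flies on 0.1 M glucosamine, an amino sugar that feeds the hexosamine pathway, and the other group of 3 from flies on 1.0 M sucrose. Neither group was given a strain or an allele in the labels, and the diets differed in sugar concentration as well as in the sugar. The labels name 30 adult females without saying whether each array drew on its own set, so p-values measure the spread between these arrays, which may be technical. Flies on unsupplemented food were not analysed here.

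Nephrocytes lie beside the fly heart and clear the hemolymph by filtration through a slit diaphragm followed by endocytosis. In endocytosis the AP-2 adaptor gathers cargo receptors and clathrin at the membrane, epsin helps to bend it, and dynamin cuts the vesicle free. On the endosome, Rab proteins switch between a GTP-bound and a GDP-bound form and recruit tethers. Retromer returns receptors, ESCRT complexes sort ubiquitinated cargo into internal vesicles, and the CORVET and HOPS tethers carry fusion towards the lysosome. GARP tethers endosome-derived vesicles at the Golgi.

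The arrays had similar upper quartiles of intensity, 222 to 237, and correlated at 0.972 to 0.978 within groups (Pearson, across genes, which do not count as replicates). The 11 nephrocyte markers had a summed intensity of 9512 to 12150 after glucosamine and 27600 to 43580 after sucrose, and 6 of the 11 were lower past the threshold. Hand, which encodes a transcription factor of the heart and its nephrocytes, was detected at 8729 ± 1061 against 14680 ± 1801 (SD, n = 3 each), whereas prc, the pericardin gene, was near the lowest intensities at 4.83 ± 0.13 and 4.67 ± 0.13 (SD, n = 3 each). Hand was the 1 gene called among 7 tested heart and pericardial markers, whose median difference was −0.01, with Mp at 0.95 and svp at 0.04. The 10 ovary markers summed to 8371 in sucrose replicate 1, 1139 in sucrose replicate 2 and 459 to 599 on the other arrays, with osk highest at 6355 and vas near background throughout. Of the 8 tested ovary markers 1 was called, aub, which was lower after glucosamine by 1.39 (limma adjusted p = 0.0402). It had 48.4, 70.2 and 62.3 after glucosamine and 325, 110 and 166 after sucrose. The 11 gut markers summed to 4321 in glucosamine replicate 3 and 138 to 707 elsewhere, with the digestive protease genes Jon25Bi and Jon65Ai near background. The 7 tested gut markers had a median difference of 1.41, and none was called. Npc2e (1.74) and Mur29B (0.41) were higher on every glucosamine array than on any sucrose array, while the other tested ones overlapped. The 5′ minus 3′ signal of the array's eIF-4a control was −3.32 to −2.65 on the log2 scale after glucosamine and −2.39 to −2.14 after sucrose, so the groups did not overlap. GAPDH and 18S rRNA lay the same way without overlap, by −0.15 and −0.12. The actin control and a further GAPDH control also lay that way, by −0.26 and −0.13, with overlapping groups. The Act5C control lay the other way, by 0.61, with overlapping groups. The part of these differences in the results below was not tested, and in whole tissue fewer cells of a type cannot be told apart from less RNA per cell.

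Of the 59 genes, 54 passed the filter on low values, which left out the 40% of genes and unnamed probe sets with the lowest mean intensity. No tested gene had a mean in either group under 9.75, the lowest mean that passed. Differences below are glucosamine minus sucrose values of log2(intensity + 16), a scale that understates changes at low intensity, and were tested with limma with Benjamini-Hochberg adjustment over all 10021 genes and unnamed probe sets. At an adjusted p of 0.05, 6 of the 54 genes were higher after glucosamine, 7 were lower and 41 did not pass. That was 24.1% of the genes against 18.6% of everything tested, with 9.92% called higher and 8.64% called lower in the whole table. A share this near the background is no result about the genes as a set. Their median difference of −0.03 equalled that of all tested genes and unnamed probe sets, −0.03, and their median absolute difference was 0.34 in both. The groups did not overlap for 24 of the 54 genes, or 44.4%, against a background of 39.0%. Of these, 10 were higher and 14 lower after glucosamine, against 18.9% and 20.0% of the whole table. With 3 arrays in each group the smallest two-sided p of an exact permutation test is 0.1, and the calls therefore depend on limma's pooling of the spread across genes.

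**Figure D1:**
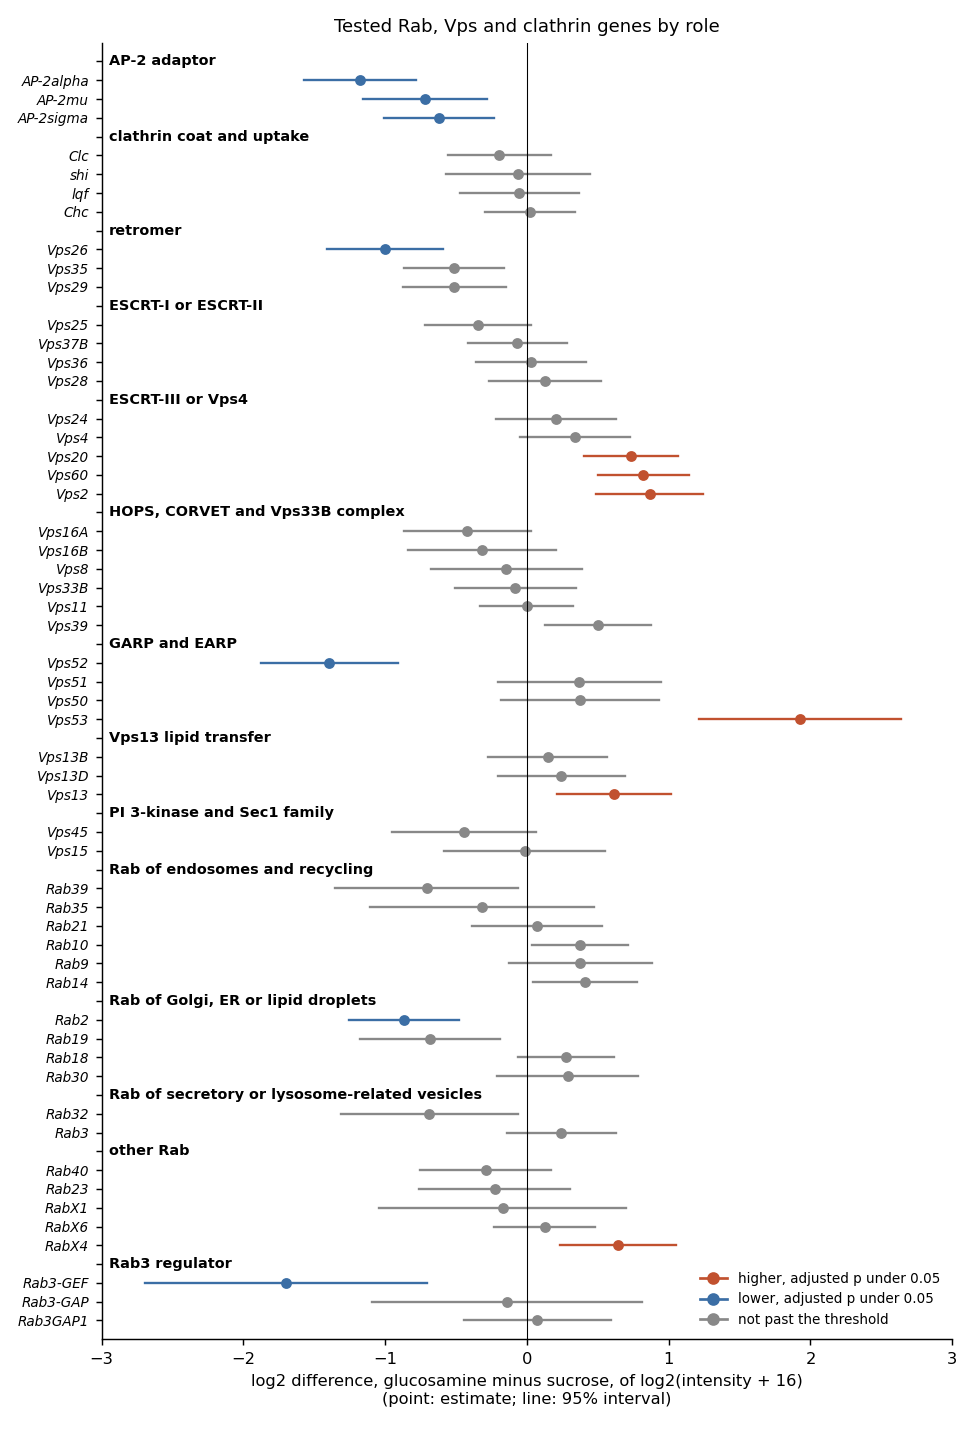
The log2 difference of each of the 54 tested genes (horizontal axis, glucosamine minus sucrose on the log2(intensity + 16) scale) is shown with its 95% interval, the genes grouped by role and coloured by call. The 3 AP-2 genes lie on the lower side, 3 of the 5 genes of the ESCRT-III and Vps4 group lie past the threshold on the higher side, and Vps52 and Vps53 lie on opposite sides.

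The 3 AP-2 subunit genes found by the rule were lower after glucosamine, by 1.54- to 2.28-fold in mean intensity. The genes of clathrin, epsin and dynamin did not pass, and a difference between them and the AP-2 genes was not tested. Of everything tested, 8.64% was called lower, and 20.0% was lower without overlap of the groups. The remaining AP-2 chain is encoded by AP-1-2beta, shared with AP-1 and outside the rule, which had 1890, 1584 and 1577 after glucosamine and 2109, 1703 and 2289 after sucrose. Its groups overlapped, and its difference of −0.26 did not pass (adjusted p = 0.318). AP-2alpha, the large subunit that contacts the membrane lipid and accessory proteins, had intensities of 1279, 1434 and 1145 in the glucosamine arrays and 2715, 2653 and 3444 in the sucrose arrays. Every glucosamine array thus lay under every sucrose array, and AP-2alpha fell by 1.18 ± 0.17 on the log2 scale (SE, limma adjusted p = 0.00667). It passed in each of 6 fits with 1 array left out, with differences of −1.26 to −1.06. AP-2mu, whose product binds tyrosine-based sorting signals of cargo, had 257, 212 and 214 after glucosamine and 372, 321 and 476.5 after sucrose. These groups did not overlap either, and AP-2mu fell by 0.72 ± 0.18 (SE, adjusted p = 0.0388). AP-2sigma, the small subunit that binds dileucine signals, had 3091, 3675 and 2902 against 4654, 4560 and 5690. The groups were again apart, and AP-2sigma fell by 0.62 ± 0.16 (SE, adjusted p = 0.0421). Both of these calls were close to the threshold: AP-2mu passed only without sucrose replicate 2 and AP-2sigma only without glucosamine replicate 2 among the 6 fits without 1 array, with adjusted p up to 0.102 and 0.124. The drop in summed nephrocyte markers, from 27600 or more to 12150 or less, ran in the same direction on the same arrays, and its part in the AP-2 values was not tested.

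Chc, the clathrin heavy chain gene, gave 7603, 6808 and 7760 after glucosamine and 7255, 6840 and 7707 after sucrose. The arrays were fully interleaved, and the difference was 0.02, with a 95% interval of −0.29 to 0.34 (adjusted p = 0.926). Clc, the light chain gene, gave 4244, 4938 and 4022 against 4848, 4629 and 5627, with overlapping groups and a difference of −0.19 (interval −0.56 to 0.17). The difference of lqf, the fly epsin gene, was −0.05 (interval −0.47 to 0.37), with 1177 to 1580 in glucosamine and 1275 to 1622 in sucrose arrays. The dynamin gene shi, known for its temperature-sensitive alleles that block vesicle scission, had 349, 475 and 272 against 402, 363 and 354 and a difference of −0.06 (interval −0.57 to 0.45). Its other 2 probe sets differed by −0.15 and −0.51 (adjusted p = 0.613 and 0.166), so none of its 3 probe sets passed. The probe set at −0.51 had 191.5, 194.7 and 140.9 against 210.6, 230 and 337.7, without overlap of the groups. For these 4 genes a change of up to about the interval's bounds was not excluded by the arrays.

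**Figure D2:**
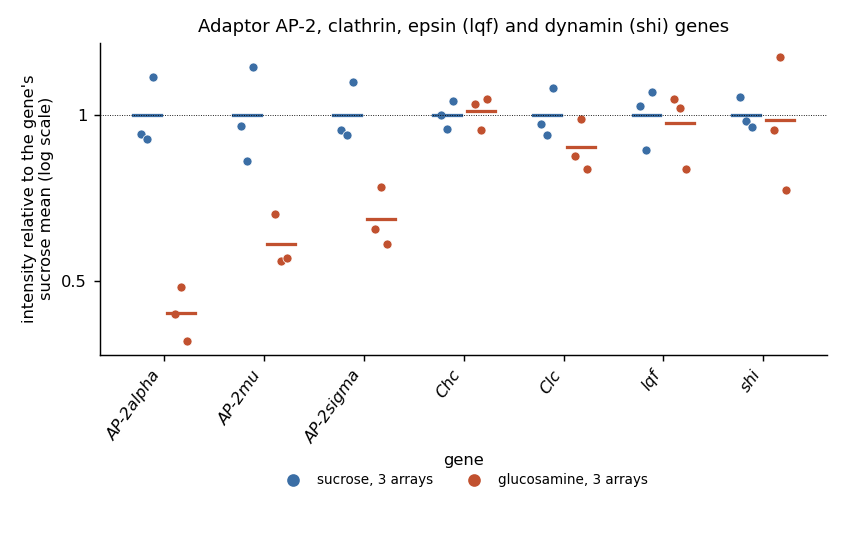
Intensity on each array divided by the gene's mean over the sucrose arrays is shown on a log scale for the 3 AP-2 genes, Chc, Clc, lqf and shi, with points for arrays and bars for group means. The glucosamine points of AP-2alpha, AP-2mu and AP-2sigma lie under all sucrose points, while those of the other 4 genes overlap them.

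Of the retromer core genes, Vps26 was lower after glucosamine and Vps29 and Vps35 had negative differences that did not pass. Vps26, which encodes the arrestin-like cargo-binding subunit, had 1494, 1584 and 1614 after glucosamine and 3842, 2632 and 3082 after sucrose. The lowest sucrose array was far above the highest glucosamine array, and Vps26 fell by 1.00 ± 0.17 (SE, adjusted p = 0.0120). It passed in 5 of 6 fits without 1 array, the exception being that without glucosamine replicate 1 (adjusted p = 0.0515). Vps35, the scaffold that holds the other subunits, had 571, 569.9 and 599.7 against 789, 759.9 and 976, a difference of −0.52 ± 0.15 (SE, adjusted p = 0.0545). Vps29 had 625, 828 and 735 against 1020, 994 and 1111, a difference of −0.51 ± 0.15 (SE, adjusted p = 0.0618). In both genes every glucosamine array was under every sucrose array. Such a fall without overlap of the groups was found for 20.0% of everything tested, and 8.64% was called lower. Vps35 passed under quantile normalization and under the stricter filter, whereas Vps29 passed in none of the alternatives.

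In the ESCRT-III and Vps4 group, 3 of 5 genes were higher after glucosamine, none were lower and all 5 differences were positive, with a median of 0.73, where 9.92% of everything tested was called higher. ESCRT-III subunits polymerise on the endosomal membrane to cut internal vesicles, and the ATPase Vps4 takes the polymer apart. Vps2 had 1616, 1751 and 1999 after glucosamine and 868, 948 and 1112 after sucrose. Its groups were well apart, and Vps2 rose by 0.86 ± 0.16 (SE, adjusted p = 0.0144). Vps60, an ESCRT-III-related subunit, had 3184, 3239 and 3214 against 2023, 1672 and 1756. The 3 glucosamine arrays lay close together above all sucrose arrays, and Vps60 rose by 0.82 ± 0.14 (SE, adjusted p = 0.0105). Vps20, which links ESCRT-II to the polymer, had 1699, 1816 and 1916 against 1033, 1207 and 1018. Those groups were apart as well, and Vps20 rose by 0.73 ± 0.14 (SE, adjusted p = 0.0160). Vps2 and Vps60 passed in all 6 fits without 1 array and Vps20 in 4, being lost without glucosamine replicate 3 and without sucrose replicate 1 (adjusted p up to 0.0511). With both of those arrays left out none of the 3 passed, with adjusted p of 0.0644 to 0.121 and differences of 0.66 to 0.90. Vps24, with 1230, 1331 and 1026 against 1110, 855 and 1144, had overlapping groups and a difference of 0.21 (interval −0.22 to 0.63). Vps4 had 2391, 1969 and 2221 against 1484, 1975 and 1764, overlapping by a single pair of arrays, with a difference of 0.34 (interval −0.05 to 0.72).

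None of the 4 genes found by the rule for ESCRT-I and ESCRT-II, the complexes that act before ESCRT-III, passed the threshold. The share called of everything tested was 18.6%. Among ESCRT genes without a Vps name, from a list described below, Mvb12 of ESCRT-I was called higher (1.62, limma adjusted p = 0.0402). TSG101 (0.06) and lsn (0.05) did not pass. Vps28 differed by 0.13, Vps37B by −0.07 and Vps36 by 0.03, each with overlapping arrays. Vps25 of ESCRT-II had 376, 429 and 417 against 518, 452 and 603, without overlap, but its difference of −0.35 did not pass (adjusted p = 0.176). A difference between the ESCRT-III genes and the 4 genes found by the rule was not tested.

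The 4 genes of the GARP and EARP tethers, which share Vps51, Vps52 and Vps53, included a rise and a fall. Among everything tested, 9.92% was called higher and 8.64% lower, and the groups did not overlap for 39.0%. A rise and a fall among 4 genes is therefore no result about these tethers as a set. EARP is the form on recycling endosomes in which Vps50 takes the place of the Vps54 subunit. Vps53 had 1075, 872 and 1266 after glucosamine and 195, 422 and 227.5 after sucrose. The smallest glucosamine value was above the largest sucrose value, and Vps53 rose by 1.93 ± 0.30 (SE, adjusted p = 0.00882), the largest rise among the 54 genes. Vps52 had 250.1, 344 and 269.9 after glucosamine and 889.6, 614 and 854.5 after sucrose. Here every sucrose array was higher, and Vps52 fell by 1.39 ± 0.20 (SE, adjusted p = 0.00719). Both kept their calls in all 6 fits without 1 array, with 1.72 to 2.24 for Vps53 and −1.56 to −1.30 for Vps52. Vps51 and Vps50 had overlapping groups and differences of 0.37 each (adjusted p = 0.332 and 0.315). The scat gene, which encodes the Vps54 subunit, had 145, 132.5 and 198 against 106, 93.7 and 111.5 and differed by 0.53 (adjusted p = 0.0875).

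**Figure D3:**
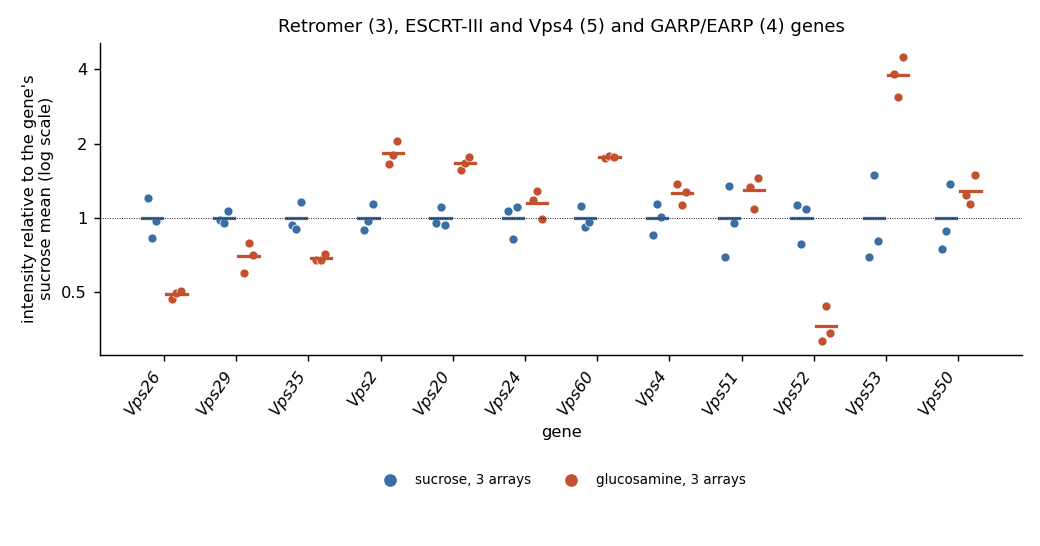
Intensity on each array relative to the gene's sucrose mean is shown on a log scale for retromer (Vps26, Vps29, Vps35), ESCRT-III and Vps4 (Vps2, Vps20, Vps24, Vps60, Vps4) and GARP and EARP genes (Vps51, Vps52, Vps53, Vps50), with bars for group means. The retromer points of the glucosamine arrays lie under those of the sucrose arrays, those of Vps2, Vps20 and Vps60 lie above, and Vps52 and Vps53 move apart.

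None of the 6 genes found by the rule for the CORVET and HOPS tethers and the related Vps16B and Vps33B pair passed. With 18.6% of everything tested called, a count this small is no result about the tethers. Of HOPS genes without a Vps name, taken from a list described below, dor (−1.08) and car (−0.70) were called lower and lt (0.08) did not pass. Vps39, a HOPS subunit that meets the late endosome, had 142, 128 and 167 against 86.4, 99.0 and 109 and a difference of 0.50 without overlap of the groups (adjusted p = 0.0706). Vps16A, a core subunit of both tethers, had 323.5, 362.5 and 387 against 396, 468 and 608 and a difference of −0.42, also without overlap (adjusted p = 0.173). Vps8, Vps11, Vps16B and Vps33B overlapped, with differences of −0.32 to 0.00.

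Among the Vps13 proteins, which carry lipids between membranes at contact sites, Vps13 was called higher. Its intensities were 2992, 3483 and 3519 after glucosamine and 1809, 2258 and 2492 after sucrose. The groups were apart, and Vps13 rose by 0.61 ± 0.17 (SE, adjusted p = 0.0494), a call that was lost in all 6 fits without 1 array (adjusted p = 0.0570 to 0.122). Vps13B and Vps13D differed by 0.15 and 0.24, with overlapping groups. Vps15, the regulatory subunit of the phosphoinositide 3-kinase complex of endosomes, differed by −0.02, and Vps45, a Sec1-family partner of endosomal SNAREs, by −0.44 without overlap (adjusted p = 0.200). The kinase of that complex, Vps34, is encoded by Pi3K59F, which the rule leaves out and which differed by −0.14 with overlapping groups (limma adjusted p = 0.56).

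Of 17 tested Rab GTPase genes, Rab2 fell, RabX4 rose and 15 did not pass, so 11.8% were called against the background of 18.6%. Rab2, which acts between the endoplasmic reticulum and Golgi and in fusion with lysosomes, had 366, 370.1 and 402 after glucosamine and 584, 807 and 743 after sucrose. The 3 glucosamine arrays were close together and under every sucrose array, and Rab2 fell by 0.87 ± 0.16 (SE, adjusted p = 0.0153). It was lost only without glucosamine replicate 1 (adjusted p = 0.0615) among the fits without 1 array. RabX4, one of the insect Rabs with no assigned number, had 93.2, 133 and 97.0 against 71.3, 59.0 and 58.1. Its groups were apart, and RabX4 rose by 0.64 ± 0.17 (SE, adjusted p = 0.0457). No fit without 1 array kept that call (adjusted p = 0.0712 to 0.122).

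Among the Rabs of endosomes and recycling, 6 of 6 did not pass. Rab10, a Rab of recycling and basement membrane secretion in fly epithelia, had 6460, 5452 and 6758 against 4753, 4659 and 4917 and a difference of 0.38 without overlap (interval 0.04 to 0.71, adjusted p = 0.115). Rab14, of endosomes and phagosomes, had 1623, 1687 and 1514 against 1346, 1029 and 1267 and a difference of 0.41, also without overlap (interval 0.04 to 0.77, adjusted p = 0.115). Their unadjusted intervals excluded 0, and the calls were decided by the adjustment over the whole table. Rab35, which directs fast recycling and actin assembly, had 103, 80.4 and 97.6 against 74.7, 106 and 211.5 and a difference of −0.32 (interval −1.11 to 0.47). Its wide interval came with a sucrose group that spanned the whole glucosamine group. Rab9, of retrieval from late endosomes to the Golgi, and Rab21, of integrin uptake, differed by 0.38 and 0.07 with overlapping groups.

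Rab39 and Rab32 had differences of −0.71 and −0.69 that did not pass (adjusted p = 0.122 and 0.119), each with 1 sucrose array near the glucosamine arrays. Rab39 had 405, 489.8 and 434 against 487, 1029 and 777.5, overlapping through sucrose replicate 1, and passed without that array (−0.99, adjusted p = 0.0326, against up to 0.282 in the other fits). Rab32, the fly gene lightoid of pigment granules, had 331, 343 and 314.5 against 670.5, 351 and 667. Its sucrose replicate 2 lay beside the glucosamine arrays, and Rab32 passed without it (−0.99, adjusted p = 0.0205, against up to 0.277 in the other fits). Rab19, a Golgi Rab, had 1248, 1755 and 1341 against 2295, 1905 and 2816 and a difference of −0.68 without overlap (adjusted p = 0.0646). Rab18, a Rab of lipid droplets and the endoplasmic reticulum, had 1888, 2200 and 1859 against 1496, 1646 and 1751 and a difference of 0.28, again without overlap (adjusted p = 0.228). Rab30, RabX1, RabX6, Rab23 and Rab40 overlapped, with differences of −0.29 to 0.29.

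**Figure D4:**
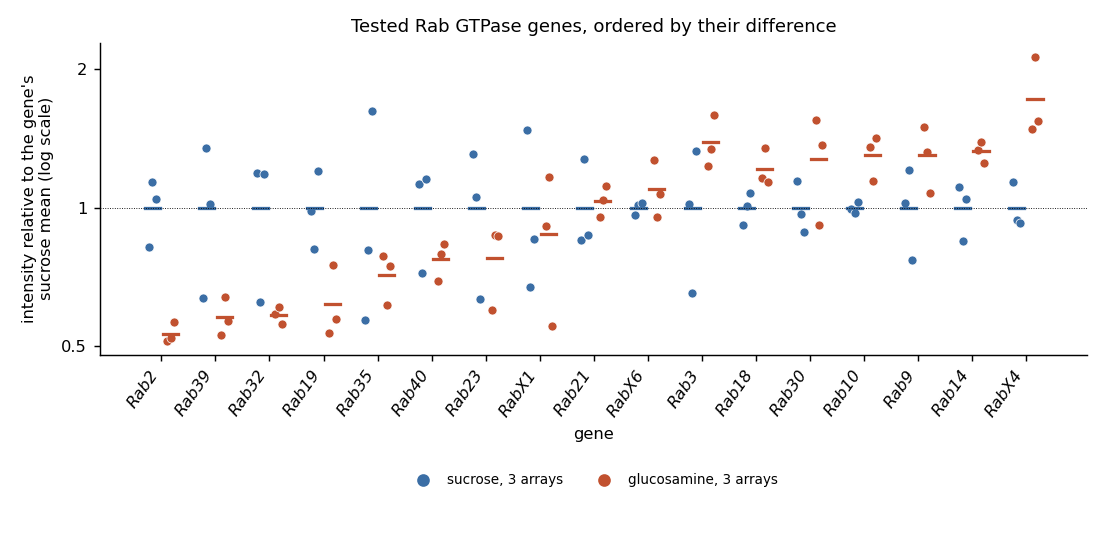
Intensity on each array relative to the gene's sucrose mean is shown on a log scale for the 17 tested Rab GTPase genes, ordered by their difference, with bars for group means. Rab2 at the left and RabX4 at the right were called, and the sucrose points of Rab39 and Rab32 are split, with 1 array beside the glucosamine arrays.

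The secretory Rabs gave little signal. Rab3, of synaptic and other regulated vesicles, had 16.4, 17.9 and 21.1 against 13.6, 8.70 and 17.7 and a difference of 0.24 with overlapping groups. Rab26 and Rab27 were among the 5 genes under the filter and had means of 8.83 to 9.04 in the 2 groups, while Rab9Fb, RabX2 and RabX5 had means of 4.84 to 5.87. None of these 5 had groups apart, and they were not tested. A probe set shared by Rab9Fa, Rab9D, Rab9E and Rab9Db, which the rule leaves out, read 6.37 to 9.96 on the 6 arrays.

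Of 3 genes that regulate Rab3, only Rab3-GEF, which encodes its exchange factor, passed. Its intensities were 8.74, 28.8 and 41.4 after glucosamine and 155.9, 149 and 61.3 after sucrose. The groups did not overlap, although glucosamine replicate 3 and sucrose replicate 3 came near each other, and Rab3-GEF fell by 1.70 ± 0.42 (SE, adjusted p = 0.0353). The call was kept in 2 of 6 fits without 1 array, those without glucosamine replicate 3 and without sucrose replicate 3, and the adjusted p ran up to 0.103. Rab3-GAP and Rab3GAP1, which encode the 2 subunits of the Rab3 GTPase-activating complex, had overlapping groups and differences of −0.14 and 0.07. Of the 9 neuronal markers, 6 were tested, futsch rose (264 to 597.5 against 28.7 to 46.1) and the other 5 did not pass, with elav at 0.16 and nSyb at −0.09. The 9 summed to 640 to 1151 after glucosamine and 359 to 467 after sucrose, but the 8 without futsch overlapped, at 318 to 553.5 against 313 to 439.

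**Figure D5:**
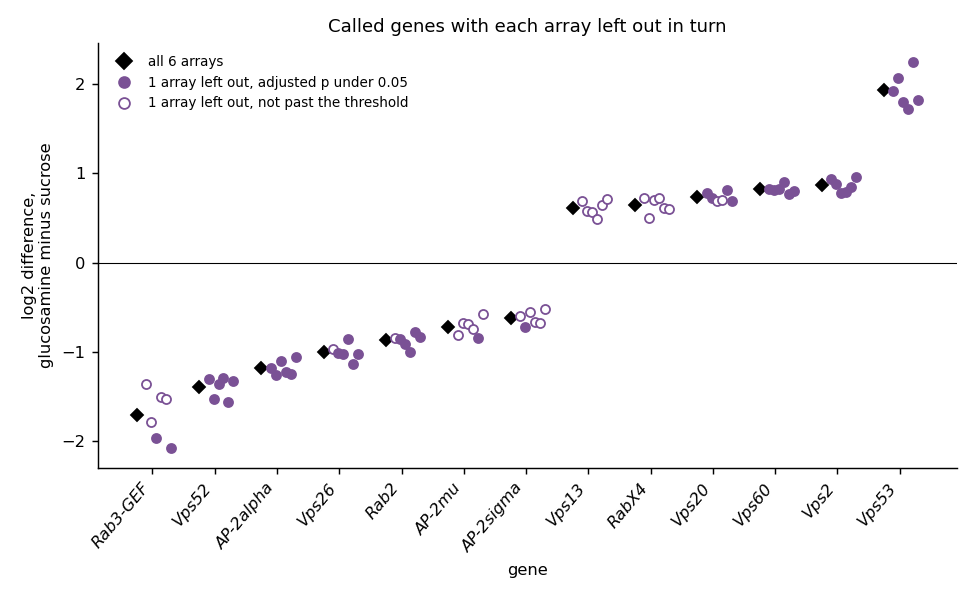
The log2 difference of each of the 13 called genes is shown with all 6 arrays (diamonds) and with each array left out in turn (circles, filled where the adjusted p was under 0.05). No difference changed sign, AP-2alpha, Vps2, Vps60, Vps52 and Vps53 kept all 6 calls, and Vps13 and RabX4 kept none.

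All 13 called genes kept the sign of their difference in each of the 6 fits, and 5 of them kept their call in all 6. With glucosamine replicate 3 and sucrose replicate 1, the arrays with the high gut and ovary sums, both left out, none of the 54 genes passed in limma. An unadjusted p under 0.05 was found for 16 of them, near the 26.6% of all tested genes and unnamed probe sets in that fit. That setting, chosen after seeing the data, called 331 of all 10021, or 3.3%. Its differences were 1.59 for Vps53, −1.26 for Vps52, −1.15 for AP-2alpha, −1.04 for Rab2, 0.90 for Vps60, −0.88 for Vps26 and 0.70 for Vps2, with adjusted p from 0.0559 to 0.108.

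Other genes of the same pathways were taken from lists by function. In the list of ESCRT, tethering, sorting nexin and phosphoinositide genes without a Vps name, 10 of 35 tested genes were higher, 4 lower and 21 not past the threshold, or 40% called against 18.6% of everything tested (9.92% higher and 8.64% lower), with a median of 0.09. The genes that rose included Stam (0.96) and Hrs (0.63), the ESCRT-0 pair that first binds ubiquitinated cargo, and Mvb12 (1.62), of ESCRT-I. The ESCRT-III genes shrb (0.67) and Chmp1 (0.60), ALiX (0.99), a partner of ESCRT-III, and mop (0.93), a phosphatase-like gene related to ALiX, rose too. Stam had a mean of 964 ± 169.5 against 482 ± 10.6 and shrb 4752 ± 205 against 2991 ± 381 (SD, n = 3 each). The ESCRT genes TSG101 (0.06), lsn (0.05) and CHMP2B (0.42) did not pass. Snx21 (1.61), a sorting nexin gene, had the smallest p of the list, with 353 ± 17.4 against 105 ± 9.70 (SD, n = 3 each), and CG5439 (1.11) and SH3PX1 (0.62) rose as well. Those that fell were dor (−1.08) and car (−0.70), the Vps18 and Vps33A subunits of HOPS, the autophagy gene Atg6 (−0.71), and PI31 (−0.66), which is a proteasome regulator rather than a sorting gene. The count of 10 was 2 to 6 without 1 array and 2 with both arrays named above left out, and the count of 4 was 0 to 3 and 0. Of everything tested, 7.84% to 14.6% was called without 1 array and 3.3% without both. Without glucosamine replicate 1, 2 of the 35 rose and 0 fell, where 7.84% of everything tested was called, so the list's share was not above the background there.

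Among 24 tested genes of other clathrin adaptors and of vesicle scission, 3 rose and 2 fell, or 20.8% called, near the 18.6% of everything tested. Without 1 array, 1 to 2 rose and 0 to 2 fell, with 1 and 0 without glucosamine replicate 1 or sucrose replicate 2. None passed with both arrays named above left out, where 3.3% of everything tested was called. The fallers were lap (−1.49), the fly AP180 gene that works with AP-2 in coat assembly, and aux (−0.83), the auxilin gene of clathrin uncoating. The fall of lap was from 360 ± 209.5 to 108 ± 26.6 and that of aux from 1737 ± 285 to 965 ± 56.8 (SD, n = 3 each). The sucrose arrays of lap read 243, 234.5 and 602, and only the higher of its 2 probe sets is given here. The genes that rose were g (1.14), the delta subunit of AP-3, AP-1gamma (0.72) and Past1 (0.74), an EHD-family gene of endocytic recycling.

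Of 27 Rab regulators and effectors, 4 rose and 1 fell. The genes that rose were Rilpl (1.42), Rph, the rabphilin gene, MICAL-like (1.31) and Crag (0.80), an exchange factor gene, and wkd (−0.64) fell. Rph had a sucrose mean of 9.74, under the lowest mean that passed the filter, and 43.3 ± 7.16 (SD, n = 3) after glucosamine, so it was tested only through its level after glucosamine and its call carries no weight. Gdi, Rep, Rabex-5 and Rbsn-5, which extract, escort or act at early endosomal Rabs, did not pass, with 0.30, 0.46, 0.43 and −0.77. In the list of SNAREs and their disassembly, 2 of 22 rose, gammaSnap1 (1.53) and Use1 (0.72), and Bet3 (−1.06), a TRAPP subunit gene, fell, while Sec22 (0.49) did not pass. Of 19 Arf and coatomer genes, dnd (1.78) and deltaCOP (0.68) rose and Arl5 (−0.73) and epsilonCOP (−0.53) fell. Of 16 exocyst and Golgi tether genes, Exo84 (−0.58) fell, as did fwe (−0.76), which is a membrane protein gene and no tether, while Cog2 (−0.48) and Sec8 (−0.55) did not pass. Of 17 lysosomal genes, bchs (2.01), Npc2a (0.80) and Npc1a (0.52) rose and LManII (−0.50) fell. The shares called in these lists and in that of clathrin adaptors were 12.5% to 23.5%, around the background of 18.6%. Their counts were small and fell with fewer arrays. Without 1 array, 3 to 4 Rab regulators, 1 to 2 SNARE genes, 1 to 2 Arf and coatomer genes and 2 to 3 lysosomal genes rose. In the same fits 0 Rab regulators, 0 to 1 SNARE genes, 0 to 1 Arf and coatomer genes, 1 to 2 exocyst and tether genes and 0 lysosomal genes fell. With both arrays left out, 2 Rab regulators, 1 SNARE gene and 1 Arf or coatomer gene rose, and nothing else in these lists passed.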

How the data were processed

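Expression was measured on 6 single-channel Affymetrix arrays, 3 per diet, grouped by the sample titles. Per the labels' protocols, total RNA came from a Trizol extraction cleaned on RNeasy MinElute columns, and Affymetrix's usual biotin labelling of cRNA followed. The authors deposited 1 linear intensity per probe set and array. Summarisation, background correction and normalization are not given in the sources used here, and the values were used as deposited. Precision is limited by having 3 arrays per diet.

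Of 18952 probe sets, 183 controls and 402 with several symbols were left out. 13647 had 1 symbol and 4720 none. The probe set with the highest mean stood for each gene, which gave 16702 genes and unnamed probe sets, of which 10021 were tested. Differences of log2(intensity + 16) were tested, two-sided, with limma 3.58.1 (lmFit, then eBayes) under R 4.3.3, adjusted by Benjamini-Hochberg. Errors are SD of intensities or SE of the fit, and intervals are 95% intervals of the moderated fit. On simulated data the fit recovered 0% of changes of 0.5 on the log2 scale, 32% of 1, 78% of 2 and 98% of 4. Far fewer genes were changed in the simulation than were called here, so these rates need not hold for the data. Figures used Python 3.11.15, pandas 2.3.3 and matplotlib 3.10.9.

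The genes and lists were chosen with earlier results of these data known. Genes named were all called ones, the 8 largest differences, a set named by role whatever the result, up to 4 of each list by p, and those under the filter; further ones were named after their values were seen. Role groups follow textbook complexes. Sequences were not used here. Alternatives were quantile normalization, median centring, cyclic loess, no filter, a 60% filter, log2(intensity + 1), averaging of all probe sets per gene, a replicate block, a trended robust prior and each array left out.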

Additional observations from a re-analysis of the deposited data

How the results depend on the processing

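Of the 13 called genes, AP-2alpha, Vps2, Vps60, Vps52, Vps53, Rab2 and Vps26 passed under all 9 alternatives that kept every array, and none of the 13 changed sign in any alternative. Without a filter 4 genes were called lower instead of 7. With the replicate number as a block, 999 genes and unnamed probe sets were called instead of 1860, and 3 of the Rab, Vps and clathrin genes were higher and 4 lower. The numbers did not pair the arrays: deviations from the group means correlated at 0.02, −0.12 and −0.05, and none of the 6 arrays correlated best with its own number. Leaving out 1 array gave 786 to 1467 calls in all, 3 to 4 genes higher and 2 to 6 lower, with 2 lower without glucosamine replicate 1, 3 higher without glucosamine replicate 3 and 3 higher without sucrose replicate 1. Without the pair of arrays with raised gut or ovary markers (glucosamine replicate 3, sucrose replicate 1), an alternative chosen after seeing the data, 331 were called in all, 0 of the genes higher and 0 lower by limma, and 16 of 54 had an unadjusted p under 0.05, as did 26.6% of everything tested. Fewer arrays leave fewer residual degrees of freedom. The cause of the other changes was not tested. Genes near the lowest intensities, such as Rab26 and Rab27, could not be compared, and with 3 arrays per group a missed threshold does not show equal expression.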
